A study of Mus musculus with 10 samples.

Results

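The Janus kinases (JAKs) of mouse are encoded by 4 genes, Jak1, Jak2, Jak3 and Tyk2. They were taken by name from the 41388 genes listed for each library of MC903-treated ear skin, and all 4 passed the filter on low counts. RNA was sequenced from whole ear skin of 10 C57Bl/6 mice, 6 in the Experimental group and 4 in the Littermate group, with 1 library per mouse. Experimental mice carry NaV1.8+ Jak1F/F in the genotype label, whereas the series text gives them NaV1.8+ Il4raF/F, so which floxed gene they carried is not settled here, and the labels name no recombinase. Littermates are labelled WT. Mice of both groups received MC903 (calipotriol, an analogue of vitamin D) on the ear, which gives an itching dermatitis used as a model of atopic dermatitis. The series text writes the dose, 1 nM daily over 12 days, beside the littermates and gives no other for Experimental mice. The labels give no age, no sex and no untreated skin, so an effect of MC903 on the JAK genes cannot be read from these libraries.

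JAKs are cytoplasmic tyrosine kinases that sit on the inner tails of cytokine receptors. When a cytokine brings the receptor chains together, the kinases phosphorylate each other and then the receptor, STAT transcription factors dock there and are phosphorylated in turn, and the STAT dimers enter the nucleus. JAK1 serves the receptors of the common gamma chain, of gp130 and of the interferons. JAK2 serves single-chain receptors such as those of growth hormone and leptin, and the common beta chain. JAK3 binds the common gamma chain and is best known from lymphocytes, and TYK2 serves the receptors of type I interferon, IL-12 and IL-23. In skin, drugs that block JAKs are used against atopic dermatitis and its itch.

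Total counts were 11520348 to 41935183 in Experimental libraries and 12865459 to 14324433 in Littermate libraries. Over all genes, 3 of 16830 tested differed between the groups (0.0178%) by edgeR's quasi-likelihood test at an adjusted p under 0.05. That count depended on the libraries kept: edgeR called 342 genes without Littermate 2, 28 without Experimental 6 and 565 without both. The last was the most of all settings run, and whether these 2 libraries stand apart by another measure was not tested. Of markers of sensory neurons, the cells that NaV1.8 marks, the NaV1.8 gene Scn10a itself had 2 counts over all 10 libraries, and the summed level of all 7 markers was 12.1 to 20.5 normalized CPM (counts per 1e6 counts of a library) in Experimental skin and 14.0 to 21.3 CPM in Littermate skin. Nearly all of that sum was Avil, with means of 12.8 CPM in Experimental and 16.0 CPM in Littermate skin, and 5 of the 7 were too low to be tested. The cell bodies of these neurons lie in ganglia outside the ear, which were not sampled. Markers of keratinocytes, at 25380 to 32940 summed CPM in Experimental skin and 27820 to 32540 CPM in Littermate skin, were all detected. Mitochondrially encoded RNAs summed to 4778 to 6040 CPM in Experimental and 5460 to 7460 CPM in Littermate skin. The largest part of that sum was mt-Co1, with a log2 fold change of -0.14 (edgeR). Of the 9 genes listed, mt-Co2, mt-Co3 and mt-Atp6 had 0 counts in every library. The 6 tested were all lower in Experimental skin, with a median of -0.65. None passed (lowest edgeR adjusted p = 0.0833). Before adjustment, 5 of the 6 fell below 0.05, as did 8.1% of tested genes on the lower side. The part of these RNAs in the results was not tested.

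The JAK genes stood at distinct levels, and the promoters at both ends of that order are printed here to show how they differ in sequence. They were read from RefSeq promoter windows (GRCm38.p6, 300 bases around the start), in which all 4 genes were matched. Letters run 5′ to 3′ on the strand of the gene, and capitals mark each CpG dinucleotide. The Jak1 window is chr4:101265174-101265473, minus strand, and the Jak3 window is chr8:71676133-71676432, plus strand.
Jak1: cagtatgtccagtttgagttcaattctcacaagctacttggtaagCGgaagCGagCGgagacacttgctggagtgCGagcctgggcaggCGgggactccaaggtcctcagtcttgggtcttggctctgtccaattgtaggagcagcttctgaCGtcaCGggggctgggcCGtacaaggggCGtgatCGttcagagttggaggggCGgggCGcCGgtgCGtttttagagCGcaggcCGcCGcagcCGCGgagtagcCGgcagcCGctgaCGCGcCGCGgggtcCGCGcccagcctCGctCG
Jak3: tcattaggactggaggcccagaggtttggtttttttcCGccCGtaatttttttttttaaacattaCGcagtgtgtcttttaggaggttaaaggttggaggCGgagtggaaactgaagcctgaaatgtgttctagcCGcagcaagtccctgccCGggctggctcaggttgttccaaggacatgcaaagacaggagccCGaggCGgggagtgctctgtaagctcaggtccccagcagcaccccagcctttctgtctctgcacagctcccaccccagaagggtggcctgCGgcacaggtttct

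The Jak1 window held 29 CpG, more than 87.1% of the 32851 RefSeq windows, and the Jak3 window held 9, more than 54.2% of them. The windows of Jak2 and Tyk2 held 44 and 23 CpG. The RefSeq start of Tyk2 lies upstream of the gene as the deposited files place it. Each of the 4 windows held the GC box GGGCGG on either strand, which 35.7% of all windows hold, with 1 match in Jak1 and Jak3, 2 in Tyk2 and 3 in Jak2. None held the STAT motif GAS (TTCNNNGAA), the TATA box TATAAA or the ETS core CCGGAAGT, which 8.30%, 13.6% and 3.89% of windows hold on either strand. A match or its absence describes these letters and says nothing of a factor.

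Jak1 was the most abundant JAK RNA of the treated skin, followed by Jak2, Tyk2 and Jak3. Compared per length, as the deposited RPKM, which is CPM per kilobase of gene length, Jak1 stood at 41.8 ± 2.69 RPKM, Jak2 at 26.2 ± 3.21 RPKM, Tyk2 at 13.0 ± 0.688 RPKM and Jak3 at 3.19 ± 0.614 RPKM (SD, n = 10 libraries). Every neighbouring pair kept its order in 10 of 10 libraries. Jak1 was 1.6 times the RPKM of Jak2, with a range of 1.30 to 1.80 times over libraries. Jak2 was 2.01 times Tyk2 (1.67 to 2.65 times), and Tyk2 was 4.13 times Jak3 (2.74 to 5.66 times). Each of the 3 steps had p = 0.00195 by a two-sided exact sign-flip permutation test within libraries. That p is the smallest that 10 libraries allow, and it was 0.00195 after adjustment over the 3. The order was taken from the same 10 libraries, so the test describes how steady each step was across them. It cannot show a bias that all libraries share. From end to end, Jak1 exceeded Jak3 by 13.3 times in RPKM. RPKM depends on the gene model used for the length, so the size of a step also depends on that model.

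The makeup of the family was similar in both groups. The summed RPKM of the 4 genes was 84.3 ± 5.85 in Experimental skin (SD, n = 6) and 84.1 ± 4.75 in Littermate skin (SD, n = 4). Jak1 made up 49.1% ± 1.77 of that sum in Experimental skin and 50.4% ± 1.29 in Littermate skin. The share of Jak2 was 31.6% ± 2.58 in Experimental and 30.2% ± 0.969 in Littermate skin, and that of Tyk2 was 15.7% ± 1.61 in Experimental and 15.1% ± 0.917 in Littermate skin. Jak3 made up 3.51% ± 0.583 in Experimental and 4.21% ± 0.657 in Littermate skin (SD, n = 6 and 4 throughout). These shares are a description and were not tested. The ranges of the groups overlapped for each gene.

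Against other cytoplasmic tyrosine kinases the JAKs held both high and low places. Among 31 such genes, Jak1 ranked 1 and Jak2 ranked 2 by mean RPKM over all 10 libraries, above Tnk2, a kinase that binds CDC42, at 24.7 RPKM, and Csk, which restrains the Src family, at 20.4 RPKM. Tyk2 ranked 10, between Tec at 13.5 RPKM and Src at 14.2 RPKM above it and the focal adhesion kinase Ptk2 at 12.3 RPKM and Abl2 at 11.04 RPKM below it. Jak3 ranked 20, below the myeloid Src-family kinase Fgr, at 4.71 RPKM, and above Srms at 3.10 RPKM and Matk at 2.89 RPKM. Jak2 lay above Tnk2 in Experimental skin (26.80 and 23.81 RPKM) and below it in Littermate skin (25.38 and 26.01 RPKM). Jak3 lay below Srms in Experimental skin (2.95 and 3.31 RPKM) and above it in Littermate skin (3.55 and 2.80 RPKM). The SDs of Jak2 and Tnk2 overlapped, as did those of Tyk2 with Tec and Ptk2 and of Jak3 with Srms. These neighbours were not tested against each other within libraries, so their order is not established. Among all 16830 tested genes, Jak1 exceeded 92.9% in RPKM, Jak2 87.5%, Tyk2 73.0% and Jak3 36.5%.

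**Figure D1:**
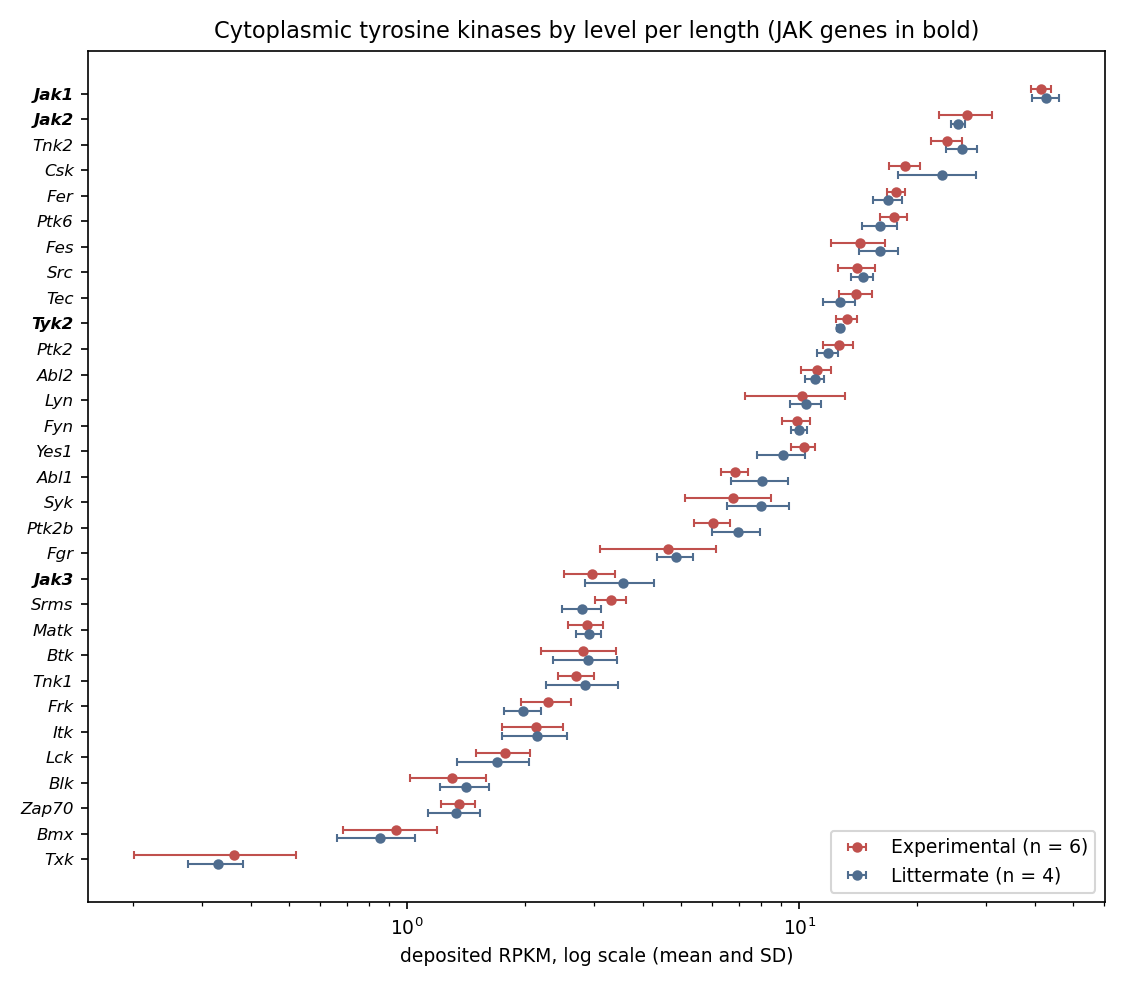
Deposited RPKM of 31 cytoplasmic tyrosine kinases (log axis), with points for the mean and bars for the SD of 6 Experimental and 4 Littermate libraries, ordered by the mean over all libraries. Jak1 at 41.8 RPKM and Jak2 at 26.2 RPKM lead by the mean over all libraries, Tyk2 stands at rank 10 and Jak3 at rank 20.

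Whether the Experimental mice differed from littermates in JAK expression was asked of each gene in turn. None of the 4 passed the edgeR test over all genes, against 0.0178% of all tested genes (0.00594% higher and 0.0119% lower). The groups overlapped in normalized CPM for all 4, whereas they did not for 2.12% of tested genes (0.761% higher and 1.35% lower). At an unadjusted p under 0.05 edgeR called 0 of the 4, against 11.8% of tested genes (3.65% higher and 8.1% lower), and DESeq2 also called 0. Jak3, close to that threshold, fell below it over all libraries by limma voom without and with quality weights (unadjusted p = 0.0474 and 0.0374). It also did so by edgeR with no filter and with a filter at 1 CPM (unadjusted p = 0.0342 and 0.0479), and with certain libraries left out, at a lowest edgeR p of 0.0112 without Littermate 2. Over all settings run, the lowest adjusted p of Jak3 was 0.134 (edgeR without Littermate 2 and Experimental 6). In bulk skin, fewer cells of a type and less RNA per cell cannot be told apart in any of these values.

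Jak1 (ENSMUSG00000028530, mm10 chromosome 4, 101152367 to 101265282, minus strand), the gene named as floxed in the genotype label, differed between Experimental and Littermate skin by less than the spread of the libraries. In the 6 Experimental libraries it ran from 272 to 323 normalized CPM with a median of 299. In Littermates 1 to 4 it stood at 325, 279, 298 and 335 CPM. Littermates 1 and 4 were above all Experimental libraries, Experimental 4 was below all Littermates, and the other 7 libraries were intermixed. The means were 297 ± 18.4 CPM (SD, n = 6) in Experimental and 309 ± 25.4 CPM (SD, n = 4) in Littermate skin. The log2 fold change was -0.06 (SE 0.07, edgeR, adjusted p = 0.815), and its 95% interval runs from 0.860 to 1.07 times the Littermate level. A loss in a small share of the cells would lie within that interval and was not detectable at this precision. The counts are per gene, so a deleted exon could not be looked at. Il4ra, the receptor chain of IL-4 and IL-13 that the series text names as floxed, ran from 130 to 270 CPM with a median of 183 in Experimental skin and from 183 to 235 CPM with a median of 224 in Littermate skin, and did not pass either (log2 fold change -0.20, edgeR, adjusted p = 0.678). Il4ra was highest in Experimental 6 and lowest in Experimental 3. Without Experimental 6 its value was -0.33 (edgeR, unadjusted p = 0.0165, adjusted p = 0.244), without Littermate 2 as well -0.39 (edgeR, adjusted p = 0.0895), and without Experimental 3 it was -0.10 (edgeR, adjusted p = 0.831). With the Y-linked covariate it was -0.042 and with a GC correction -0.12 (edgeR, adjusted p = 0.999 and 0.846).

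Jak2 (ENSMUSG00000024789, chromosome 19, 29251828 to 29313080, plus strand) spread more widely among Experimental than among Littermate mice, a difference in spread that was not tested. It ran from 114 to 173 normalized CPM with a median of 130 in Experimental libraries. Littermates 1 to 4 stood at 134, 120, 132 and 130 CPM. Experimental 6 was the highest library of all and Experimental 4 the lowest, and the Littermates lay between them. The means were 134 ± 20.8 CPM (SD, n = 6) in Experimental and 129 ± 6.12 CPM (SD, n = 4) in Littermate skin. The log2 fold change was 0.06 (SE 0.10, edgeR, adjusted p = 0.857), and without Experimental 6 it was -0.02. The 95% interval was 0.900 to 1.21 times the Littermate level. The pooled variation within groups was 12.8% of the mean, against 2.20% from counting alone, and 80.1% of the genes within 2-fold of its level varied less.

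Tyk2 (ENSMUSG00000032175, chromosome 9, 21104069 to 21127346, minus strand) had the smallest spread of the family. In Experimental libraries it ran from 53.9 to 63.0 normalized CPM with a median of 62.4. Littermates 1 to 4 stood at 59.5, 57.9, 60.8 and 58.2 CPM. Experimental 1 to 4 were just above all Littermates and Experimental 5 was below them, so the groups overlapped. The log2 fold change was 0.04 (SE 0.06, edgeR, adjusted p = 0.851), and the 95% interval was 0.935 to 1.13 times the Littermate level. The pooled variation within groups was 4.81%, close to the 3.27% from counting alone, and 5.72% of the genes within 2-fold of its level varied less. With a correction for GC content the log2 fold change was 0.13 (edgeR, adjusted p = 0.463, unadjusted p = 0.0377).

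Jak3 (ENSMUSG00000031805, chromosome 8, 71676296 to 71690575, plus strand) had the largest difference of the family, and it did not pass the test. In Experimental libraries it ran from 12.9 to 18.4 normalized CPM with a median of 15.8. Littermates 1 to 4 stood at 18.6, 15.1, 18.5 and 24.6 CPM. All 6 Experimental libraries lay below the Littermate median, 3 lay below all Littermates, and Littermate 4 stood well above every other library. The means were 15.7 ± 2.27 CPM (SD, n = 6) in Experimental and 19.2 ± 3.96 CPM (SD, n = 4) in Littermate skin. On the log2 scale the difference was -0.29 (SE 0.14, interval from -0.58 to 0.00045, edgeR, unadjusted p = 0.0503, adjusted p = 0.425). Without Littermate 4 it was -0.14 (edgeR, adjusted p = 0.850), and without Littermate 2 it was -0.39 (edgeR, adjusted p = 0.153). Its counts were 154 to 558 in Experimental and 206 to 316 in Littermate libraries, so that counting alone gives a variation of 6.11%, against 17.6% measured within groups. The Jak3 gene shares 404 exon bases with Insl3 on the same strand, which had 68 counts in all libraries.

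**Figure D2:**
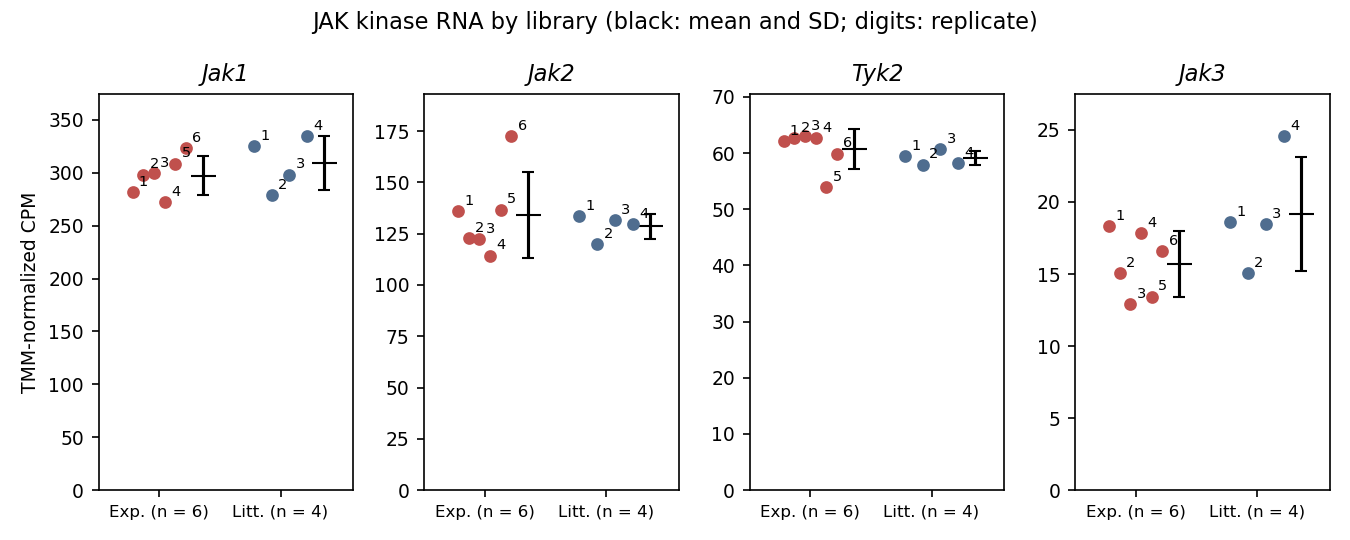
TMM-normalized CPM of Jak1, Jak2, Tyk2 and Jak3 in each library (points, with the replicate number), Experimental left and Littermate right, with the mean and SD of each group in black. The groups overlap in all 4 panels, Experimental 6 is high for Jak2, Experimental 5 low for Tyk2 and Littermate 4 high for Jak3.

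Other measures are given as values beside the Jak3 difference. The Jak3 transcript has the highest GC content of the family (61.0%), against 57.0% for Tyk2, 47.6% for Jak1 and 44.3% for Jak2, and with a correction for GC content the Jak3 log2 fold change was -0.13 (edgeR, adjusted p = 0.755). The summed level of 4 Y-linked genes was 282 to 339 CPM in Experimental and 229 to 301 CPM in Littermate libraries, lowest in Littermate 4. All 4 were detected in every library, with a lowest value of 46.7 CPM (Kdm5d, Littermate skin). Every library thus held Y-linked RNA, as male mice do, so their level as a covariate is not an adjustment for sex. All 4 also leaned higher in Experimental skin (log2 fold changes of 0.15 to 0.20, lowest edgeR adjusted p = 0.353). With their mean level as a covariate, which thus leans with the group, the Jak3 log2 fold change was 0.04 (edgeR, adjusted p = 0.999). Over the 10 libraries, the marker list closest to Jak3 by Pearson's r was that of endothelium (r = 0.65, permutation p = 0.0426, adjusted p = 0.414; rho = 0.58, permutation p = 0.0865, adjusted p = 0.463), and r was 0.69 without Experimental 4 and Littermate 4 and 0.11 within the Experimental group. Its 5 markers summed to 234 to 309 CPM in Experimental and 260 to 375 CPM in Littermate libraries. Mitochondrially encoded RNA followed (r = 0.63, permutation p = 0.0530, adjusted p = 0.414; rho = 0.53, permutation p = 0.123, adjusted p = 0.463), and r was 0.13 without Littermates 1 and 4, so that relation rests on those libraries. For the 6 mast cell markers, rho was 0.66 (permutation p = 0.0434, adjusted p = 0.463) and r was 0.54 (permutation p = 0.105, adjusted p = 0.432), or 0.74 without Experimental 4 and Littermate 1. Their sum was 360 to 471 CPM in Experimental and 418 to 486 CPM in Littermate libraries. The 8 T cell markers, from the cells in which JAK3 is best known, leaned the other way: their sum was 38.1 to 43.9 CPM in Experimental and 35.1 to 38.0 CPM in Littermate libraries, 7 of 8 had positive log2 fold changes, and none passed (lowest edgeR adjusted p = 0.413). The common gamma chain Il2rg, the receptor subunit that JAK3 binds, was named here after its values were seen. It stood at 19.6, 17.9, 14.3, 11.2, 18.2 and 21.3 CPM in Experimental 1 to 6, against 18.3, 10.6, 15.5 and 14.4 CPM in Littermates 1 to 4, and the groups overlapped. Its log2 fold change was 0.22 (edgeR, adjusted p = 0.676), and without Littermate 2 it was 0.089 (edgeR, adjusted p = 0.846). The part of these measures in the Jak3 difference was not tested beyond the values given.

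**Figure D3:**
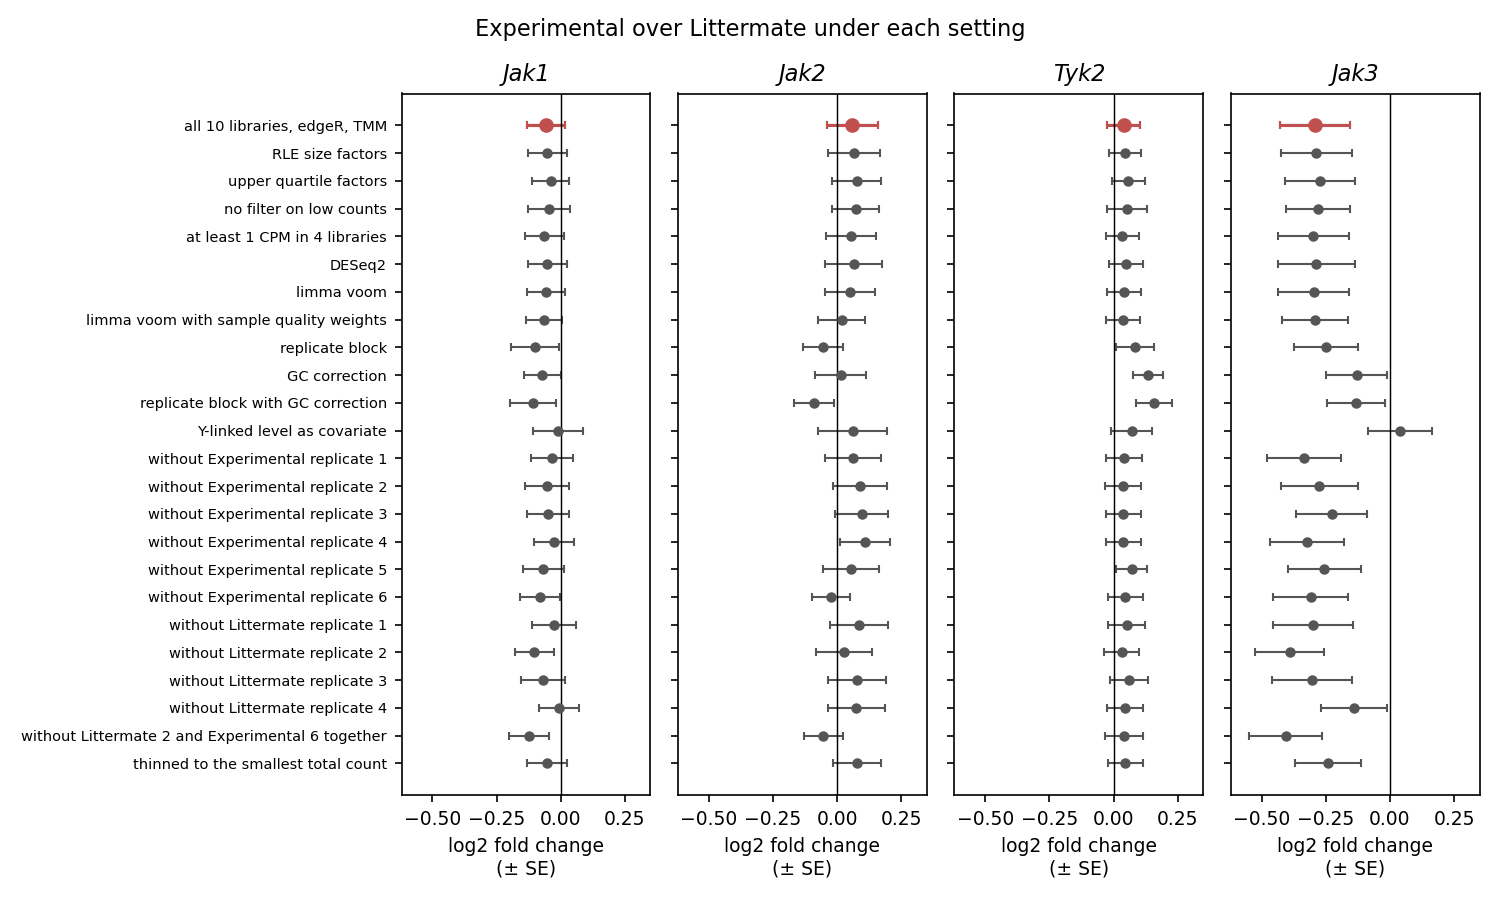
Log2 fold change of each JAK gene, Experimental over Littermate, with its SE, over all 10 libraries with edgeR (red) and under each alternative setting (dark grey). Jak1 and Tyk2 keep their sign throughout, Jak2 lies on either side of 0, and Jak3 lies between -0.41 and 0.04.

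No relation between the JAK genes across mice passed the test. Over 10 libraries, Jak1 and Jak2 had the closest relation of the 6 pairs on log2 CPM (Pearson's r = 0.57, permutation p = 0.0782; Spearman's rho = 0.56, permutation p = 0.0972). After adjustment over 74 relations, which also set each JAK against marker lists of cell types and RNA handling, the p was 0.432, and without Experimental 4 and 6 the r was 0.32. The lowest p of the 74 was between Jak2 and the neutrophil markers (r = 0.86, permutation p = 0.00255, adjusted p = 0.189; rho = 0.70, permutation p = 0.0306, adjusted p = 0.463). That r was 0.95 within the 6 Experimental libraries and 0.68 without Experimental 3 and 6. None of the 74 relations passed the adjustment. Jak3 showed no relation to the T cell markers (r = 0.01, permutation p = 0.967; rho = -0.21, permutation p = 0.562; adjusted p = 0.967), and r was -0.41 without Experimental 1 and Littermate 2.

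With the mean of each group removed, the genes whose levels were most like each JAK over the 10 libraries were found among 14278 genes, as a description without a test. For Jak2 these were Csf3r, the receptor of the neutrophil growth factor G-CSF (r = 0.99), Trim30b (r = 0.98) and Apobec1 (r = 0.97). Without Experimental 6 these values were 0.97, 0.93 and 0.91. Csf3r is also 1 of the 5 neutrophil markers, so this likeness and the relation of Jak2 to that list share a gene and are not separate results. Csf3r stood at 43.0 CPM in Experimental 6 and at 8.40 to 17.4 CPM in the other Experimental libraries, against 31.7, 19.5, 29.6 and 28.2 CPM in Littermates 1 to 4. For Jak1 the most alike were Cpt1a, which brings fatty acids into mitochondria (r = 0.95), Tmem151a (r = 0.94) and the scaffold protein Iqgap1 (r = 0.94). For Jak3 they were the RNA helicase Skiv2l (r = 0.96), the kinase Dgkh (r = 0.95) and the calcium channel Cacna1c (r = 0.94). For Tyk2 they were Galnt2 (r = 0.95), Aldh1b1 (r = 0.94) and Tmem184a (r = 0.93), which rested in part on Experimental 5, without which they were 0.89, 0.70 and 0.77. Between JAK genes, the same measure was 0.64 for Jak1 and Jak2 and -0.33 to 0.24 for the other pairs. For scale, between 0.560% and 1.68% of genes had r over 0.8 with a given JAK.

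**Figure D4:**
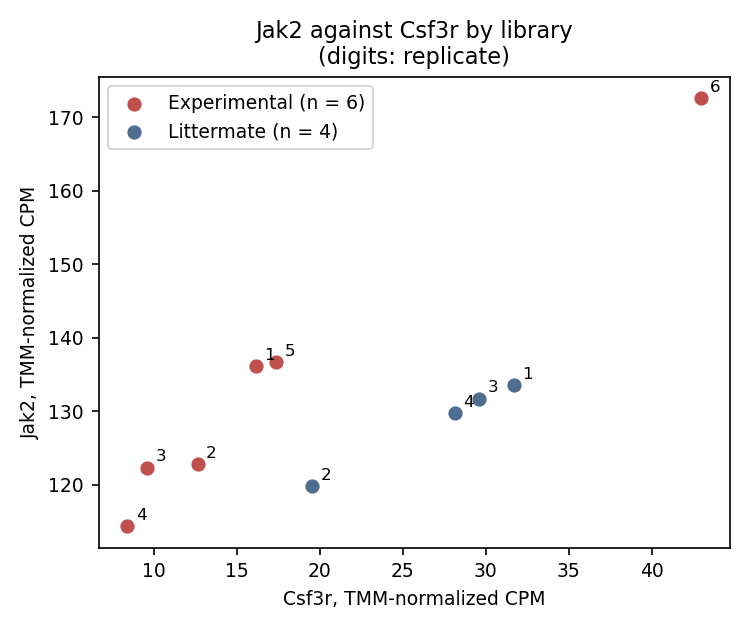
Jak2 against Csf3r in TMM-normalized CPM, 1 point per library with its replicate number. Within each group the 2 genes rank the libraries alike, Experimental 6 is highest in both at 173 and 43.0 CPM, and the Littermates lie to the right of Experimental libraries of like Jak2 level.

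Around the kinases, 112 genes of the pathway were listed by role, and 92 of them were tested. None passed over all genes by edgeR or limma voom, whereas DESeq2 called 3, in a fit that called 1.43% of all tested genes (227 of 15846). At an unadjusted p under 0.05 edgeR called 12 of the 92 (13.0%), 4 higher and 8 lower, against 11.8% of all tested genes. The median log2 fold change was -0.01, against -0.001 for all tested genes. For 5 of the 92 (5.43%) the groups did not overlap, 2 higher and 3 lower, against 2.12% of tested genes.

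Of 31 cytokines that signal through JAKs, 13 were tested, with 0 passing by edgeR, 1 at an unadjusted p under 0.05 in each direction and a median log2 fold change of 0.07. Tslp, the epithelial cytokine that MC903 induces, stood highest by RPKM. It ran from 118 to 238 CPM with a median of 164 in Experimental skin, against 31.9 to 111 CPM with a median of 57.3 in Littermate skin. The groups did not overlap, and the log2 fold change of 1.4 did not pass (edgeR, adjusted p = 0.229), whereas DESeq2 called it (adjusted p = 0.0264). Over all settings run, by edgeR, DESeq2 and limma voom, it was 1.04 to 1.89 with an adjusted p of 0.0264 to 0.909. Csf3, which encodes G-CSF and had the lowest p of all 92, ran from 0.571 to 2.61 CPM with a median of 1.05 in Experimental skin and from 3.12 to 6.54 CPM with a median of 4.87 in Littermate skin. The groups did not overlap here either, and the difference of -1.82 on the log2 scale did not pass (edgeR, adjusted p = 0.0860). DESeq2 called it (adjusted p = 0.00089), and edgeR called it without Experimental 6 (adjusted p = 0.034) or without Littermate 2 (adjusted p = 0.0467). With the Y-linked covariate it was -1.44 (edgeR, adjusted p = 0.873) and with a GC correction -1.72 (edgeR, adjusted p = 0.222). Without Littermate 4 it was -1.63 (edgeR, adjusted p = 0.386). Csf3 had only 446 counts over all 10 libraries.

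Receptors were grouped by the chain that carries the kinase. Of 11 tested receptors of the common gamma chain, IL-13 and TSLP, 7 were positive with a median of 0.09. The most abundant by RPKM was Il13ra1, a chain of the receptor of IL-4 and IL-13, at 177 ± 11.8 CPM in Experimental skin (SD, n = 6) and 154 ± 9.22 CPM in Littermate skin (SD, n = 4), which is 0.20 on the log2 scale (edgeR, adjusted p = 0.3). Of 8 tested gp130 family receptors, 6 were negative with a median of -0.09. There Il6st, which is gp130 itself, stood at -0.04 and Il6ra, which binds IL-6, at -0.22 (edgeR, adjusted p = 0.917 and 0.455). Of 10 tested receptors of interferons and the IL-10 family, 7 were positive with a median of 0.04. Ifngr1, a chain of the interferon gamma receptor, stood at 0.10 and Ifnar2, a chain of the type I interferon receptor, at -0.18 (edgeR, adjusted p = 0.691 and 0.453). The 3 receptors of IL-12 and IL-23 were positive with a median of 0.08, with Il12rb2 at 0.08 and Il23r at 0.20 (edgeR, adjusted p = 0.852 and 0.760).

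The list of single-chain receptors and those of the common beta chain, which use JAK2, had the list median farthest from 0, which was not tested. It does not hold all receptors that use JAK2, so it does not describe them as a class. Of 9 tested, 6 were negative with a median of -0.19, and at an unadjusted p under 0.05 there were 3 lower and 1 higher, against 8.1% lower and 3.65% higher of all tested genes. The higher gene was Lepr, the leptin receptor. It ran from 25.7 to 29.9 CPM with a median of 27.3 in Experimental skin, against 21.1 to 24.3 CPM with a median of 21.6 in Littermate skin, so the groups did not overlap. Its log2 fold change was 0.31 (edgeR, adjusted p = 0.135), and DESeq2 called it (adjusted p = 0.0208). Over all settings run, by edgeR, DESeq2 and limma voom, it was 0.24 to 0.36 with an adjusted p of 0.0208 to 0.873. The 3 lower genes, named after their values were seen, were the common beta chain Csf2rb at -0.35, its mouse paralog Csf2rb2 at -0.36 and the IL-3 receptor chain Il3ra at -0.35 (edgeR, adjusted p = 0.374, 0.355 and 0.349). Csf2rb and Csf2rb2 are similar in sequence, so reads could be shared between them. Csf2ra, the most abundant of the list by RPKM, stood at -0.19 (edgeR, adjusted p = 0.603), and Csf3r at -0.62 (edgeR, adjusted p = 0.626). Leaving out Littermate 2 and Experimental 6 together gave the most genes called of all settings run, so calls in that fit depend on that choice. There edgeR called 3.35% of all tested genes (565 of 16857) and 7 of the pathway genes. These were Csf2rb at -0.54, Csf2rb2 at -0.56, Csf3r at -1.22, Csf3 at -2.14, Socs3 at -0.35, Bcl6 at -0.39 and Tslp at 1.89 (edgeR, adjusted p = 0.0161, 0.0187, 0.0165, 0.0158, 0.0432, 0.0474 and 0.0457). Csf3r and Socs3 were both highest in Experimental 6 among Experimental libraries, so its removal alone lowers the Experimental mean of each. Myeloid cells express several of these receptors. The 7 macrophage markers summed to 1339 to 2151 CPM in Experimental and 1681 to 1995 CPM in Littermate skin, and the 5 neutrophil markers, Csf3r among them, to 42.2 to 102 CPM in Experimental and 56.1 to 87.8 CPM in Littermate skin. Their part in the receptor values was not tested.

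Downstream of the kinases, the 7 STAT factors had a median of 0.03 and 0 passed. Stat3, the factor of gp130 signals and the most abundant by RPKM, stood at 386 ± 24.0 CPM in Experimental skin (SD, n = 6) and 405 ± 35.5 CPM in Littermate skin (SD, n = 4), or -0.07 on the log2 scale (edgeR, adjusted p = 0.776). Stat4, the factor of IL-12 signals, was scarce at 1.61 ± 0.234 CPM in Experimental and 1.10 ± 0.328 CPM in Littermate skin (SD, n = 6 and 4), and stood at 0.54 (edgeR, adjusted p = 0.351). The 8 genes of the SOCS family, of which some are induced by STATs and inhibit JAKs, had a median of -0.01 and 0 passed. Socs3, the most abundant by RPKM, stood at -0.19 and Socs1 at -0.21 (edgeR, adjusted p = 0.609 and 0.591). Of 12 phosphatases and other restraints, 8 were negative with a median of -0.06, with the phosphatase Ptpn1 at -0.08 and the adaptor Sh2b3, which restrains JAK2, at -0.23 (edgeR, adjusted p = 0.706 and 0.337). Pias4, named after its values were seen, had groups that did not overlap, at -0.16 (edgeR, adjusted p = 0.476).

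Of 11 STAT target genes, 9 were negative with a median of -0.11, and at an unadjusted p under 0.05 there were 3 lower and 0 higher, against 8.1% lower and 3.65% higher of all tested genes. Bcl3, a partner of NF-kB subunits, had the lowest p of this list. It ran from 14.4 to 18.4 CPM with a median of 17.7 in Experimental skin, against 19.7 to 25.4 CPM with a median of 21.9 in Littermate skin, so the groups did not overlap. Its log2 fold change was -0.38 (edgeR, adjusted p = 0.159), and it was -0.20 both with a GC correction and with the Y-linked covariate (edgeR, adjusted p = 0.497 and 0.937). Mcl1, a survival factor and the most abundant of the list by RPKM, stood at -0.11 (edgeR, adjusted p = 0.603). Several of these targets also answer to tissue handling, and 6 immediate early genes leaned the same way, with 0 passing by edgeR and 5 at an unadjusted p under 0.05, against 8.1% lower of all tested genes: 6 of 6 were negative, the median was -0.42 on the log2 scale, and their sum was 486 to 594 CPM in Experimental and 556 to 653 CPM in Littermate skin. The part of handling in these values was not tested.

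**Figure D5:**
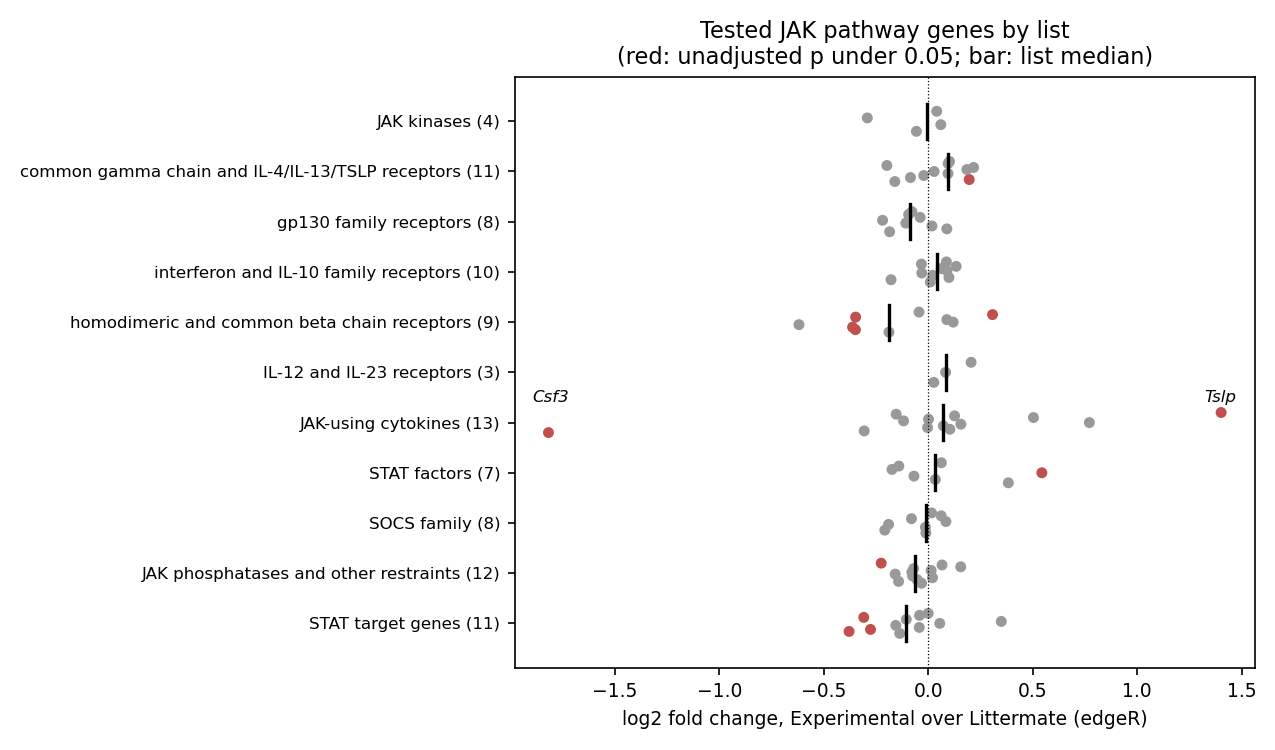
Log2 fold change, Experimental over Littermate (edgeR), of the JAK genes and of 92 tested genes of their pathway by list, 1 point per gene, in red at an unadjusted p under 0.05, with a black bar at each list's median and the number tested in parentheses. Medians lie between -0.19 and 0.09, and Tslp at 1.4 and Csf3 at -1.82 lie farthest from 0.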

How the data were processed

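Whole ear skin RNA was depleted of ribosomal RNA and sequenced as single reads of 50 bases, per the labels' protocols. The submitters' processing notes name mm10, STAR 2.0.4b, featureCounts 1.4.5 and Subread. The sources used here do not give the annotation release, the strand setting or how shared reads were handled. The files hold the authors' read count per Ensembl gene. The deposited CPM is that count per 1e6 counts of the library, and the deposited RPKM is that CPM per kilobase of gene length. Symbols were matched to 97.3% of identifiers.

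Counts of all 10 libraries were tested with edgeR 4.0.16 (TMM factors of 0.984 to 1.02, filterByExpr, robust dispersion, quasi-likelihood test, two-sided, group only) and adjusted by Benjamini-Hochberg over 16830 genes at 0.05. The SE is the log2 fold change divided by the square root of F. The common biological variation was 12.8%. A count of 3 was worth 0.0715 to 0.260 CPM, for counting error only. The fit was also run on simulated counts with the same biological variation of 12.8% for every gene. No simulated library deviated over many genes, so that run does not show how the fit behaves with such libraries. Relations used log2 CPM with a prior count of 2 and 100000 permutations.

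Alternatives were other size factors, other filters, DESeq2 1.42.0, limma 3.58.1 voom with and without quality weights, a replicate block, a lowess correction for transcript GC content (GENCODE M21), a Y-linked covariate, thinning and left-out libraries. Named genes were the JAKs, and in each list those that passed or otherwise the lowest p, and the highest RPKM. Il2rg, Il4ra, Csf3r, Csf2rb, Csf2rb2, Il3ra and Pias4 were added after their values were seen. Of the tyrosine kinases compared, 1 is not reported here and is left out of the ranks. Members and lists were chosen with earlier results of these data known.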

Additional observations from a re-analysis of the deposited data

Results flagged for a closer look

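Of 60 groups of values looked at, 3 held a single library far from the others by Dixon's criterion. Chance meets that criterion in about 5% of independent groups. The 60 groups share the same 10 libraries, and Csf3r was added after its values were seen, so 3 of 60 cannot be judged against that share. Tyk2 stood at 53.9 normalized CPM in Experimental 5, the lowest of its group, with the other Experimental libraries at 59.9 to 63.0 CPM. Socs3 stood at 102.9 CPM in Experimental 6, with the others at 59.5 to 73.4 CPM. Csf3r stood at 43.0 CPM in Experimental 6, with the others at 8.40 to 17.4 CPM. Experimental 6 was also the highest library for Jak2, at 173 CPM, without meeting the criterion.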

How the results depend on the processing

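No JAK gene was called under any of the 23 alternatives. Jak1 and Tyk2 kept their direction, with log2 fold changes of -0.12 to -0.01 and 0.03 to 0.16. Jak2 turned to -0.056 with a replicate block, -0.089 with a replicate block and GC correction, and -0.053 without Littermate 2 and Experimental 6 together. Replicate numbers 5 and 6 occur only in the Experimental group, so with a block Experimental 5 and 6 take no part in the group difference. Each of these settings thus leaves Experimental 6 out of that difference, and they are not separate changes. Leaving out each library in turn gave -0.024 (without Experimental 6) to 0.11 for Jak2 and -0.39 to -0.14 for Jak3, which turned to 0.038 with the Y-linked covariate. The same covariate turned Csf2ra to 0.045, Il12rb2 to -0.048, Il6st to 0.078, Socs1 to 0.062 and Stat3 to 0.045. With 1 library left out, Il12rb2 was -0.022 (Littermate 4) to 0.196 and Il6st was -0.103 to 0.0143 (Littermate 4). The cause of these changes was not tested. The count over all genes was 227 with DESeq2, 57 with voom quality weights, 78 with no filter, 67 with a replicate block, 11 with a block and GC correction, 565 without Littermate 2 and Experimental 6 together, and 3 to 342 with each library left out, of which 28 without Experimental 6, 342 without Littermate 2 and 8 without Littermate 3. Pathway genes called numbered 3 with DESeq2, 1 with a replicate block, 7 without Littermate 2 and Experimental 6 together, and 0 to 2 with each library left out. Deviations from the group mean had r of 0.03, -0.02, 0.09 and -0.02 between same-numbered libraries for numbers 1 to 4. Libraries with different numbers had r of -0.13 to 0.14. These values give no sign of pairing, and a shared cage or batch was not tested. The order of JAK levels and the shares held with each library left out, and with TMM-normalized RPKM by construction. Depth limits Jak3 most, at 154 to 558 counts per library.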
